A study of Mus musculus with 6 samples.

Results

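The 8 genes described here mark GABAergic interneurons, the inhibitory neurons of the cortex. They are the GABA synthesis genes Gad1 and Gad2, the vesicular GABA transporter Slc32a1, the neuropeptides Sst and Npy, and the interneuron genes Erbb4, Nxph1 and Maf. They were taken by symbol from a table of 17348 genes, and all 8 passed the filter on low counts that left 13340 genes. Sst had been seen to be higher in cKO, and the list was built around it with that result known. The difference between genotypes is therefore given for these genes as a description, without a test.

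RNA had been sequenced from the E13.5 mouse cortex, and each genotype had 3 libraries. The libraries labelled cKO came from embryos that carried Nestin-Cre and floxed Ybx1 alleles (Ybx1 fl/fl), in which Cre removes the RNA-binding protein Ybx1 from neural progenitors and their progeny. The controls are labelled WT. In the study's description of its crosses the controls are Ybx1 fl/fl embryos without Cre, whereas its sequencing methods call them wild type littermates. Both groups may therefore carry the floxed alleles, which the sources leave unsettled. Nestin-Cre is active throughout the nervous system, which includes the ventral forebrain where interneurons are born, whereas blood and skin cells in a dissected cortex keep the gene. The series description mentions 3 sequencing batches, but not which libraries each held, so batch could not be entered in a fit. Nothing in the labels says how many embryos were in 1 library, and p-values measure only the spread between these libraries.

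Cortical interneurons arise outside the cortex, in the ganglionic eminences of the ventral forebrain, and migrate into it during embryonic life. Gad1 and Gad2 encode the glutamate decarboxylases GAD67 and GAD65, which make GABA, and Slc32a1 encodes VGAT, which loads it into vesicles. Somatostatin (Sst) and neuropeptide Y (Npy) are released by subclasses of interneurons, many of which descend from the medial ganglionic eminence. Erbb4 is a neuregulin receptor of migrating interneurons, Nxph1 encodes a secreted ligand of neurexins, and Maf is a transcription factor of the medial ganglionic eminence lineage. In bulk RNA, more cells of a type and more RNA per cell cannot be told apart.

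The stretches of DNA just before the start sites were compared for the neuropeptides and the GABA synthesis genes, because cAMP-dependent control of Sst is a textbook case. The sequences are from RefSeq (GRCm38.p6), run 5′ to 3′ on the strand of the gene and cover bases 55 to 26 before the start site of that table. Capitals mark the motifs searched, namely TGACGTCA (the cAMP response element), the CCAAT box, the homeodomain core TAATTA, and the TATA-like letters ATAAAA as well as TTTAAA, each on both strands.
Sst, chr16:23890870-23890899, minus strand: ccttggcTGACGTCAgagagagagTTTAAA
Npy, chr6:49822655-49822684, plus strand: ccccgaggcccctcctgccgcgacaagggc
Gad1, chr2:70562074-70562103, plus strand: aacggcctcgtgattccccccgccgagcgg
Gad2, chr2:22622272-22622301, plus strand: cccagcgcctccatttcccttccgtcactc
The Sst window held the whole cAMP response element, at bases 48 to 41 before the start, and TTTAAA at bases 31 to 26. Over 250 bases before the start, the cAMP response element was found in 1 of the 7 genes with an entry (Sst), and in 1.55% of 32817 mouse promoter windows of that length. The CCAAT box was found before the start of Gad2, Npy and Nxph1, and in 33.8% of all windows. TAATTA, a core that homeodomain factors can bind, was found in none of these 7 windows and in 4.85% of all windows. ATAAAA lay before Npy and Erbb4 and in 17.0% of all windows, and TTTAAA, which was found in 12.1% of windows, lay before Sst at a second place as well. The start sites of this table are not the outermost ones: the printed stretches of Sst, Gad1 and Gad2, and the 250 bases searched for Slc32a1, Erbb4 and Nxph1, lie within the RefSeq gene spans given below, and those of Npy do not. A match of letters does not show that a factor binds there, and Maf had no entry.

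The libraries held between 15907486 and 16282921 estimated counts. Levels are given below as CPM, the share of a library total after scaling with TMM factors, or, where genes are compared with each other, as TPM, transcript shares that take transcript length into account. A count of 0 allows up to 3 counts, which is 0.181 to 0.188 CPM here. Ybx1 gave 1021, 528 and 1220 CPM in WT replicates 1, 2 and 3 and between 83.1 and 147 CPM in the cKO libraries, so that the library labelled WT replicate 2 lay between the other WT libraries and cKO. Summed markers of meninges and skin reached 728 CPM in cKO replicate 3 and between 8.24 and 16.7 CPM in the other 5 libraries. The fold changes of the 8 genes without these 2 libraries are given below. The cortical labels were borne out by summed excitatory neuron markers of 2517 to 3458 CPM and cortical progenitor markers of 2741 to 3548 CPM per library.

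Gene positions below are those of RefSeq on GRCm38.p6, and ± after a fold change is its standard error. Somatostatin had the largest difference between genotypes among the 8 genes. Sst (Entrez gene 20604, chr16:23889573-23891342) gave 9.67, 7.75 and 9.25 CPM in WT and 20.3, 19.3 and 19.7 CPM in cKO. Every cKO library lay above every WT library, and the lowest cKO value was well clear of the highest WT value. The mean was 8.89 ± 1.01 CPM in WT and 19.8 ± 0.548 CPM in cKO (SD, n = 3 each), a 2.22-fold level. The log2 fold change was 1.15 ± 0.11 (SE). These levels rest on 125 to 154 counts in WT and 307 to 326 counts in cKO. The spread between libraries of a genotype was 0.12 on the log2 scale, close to the 0.10 that counting alone would give. The fold change stayed between 1.06 and 1.22 (log2) when any 1 library was left out, and it was 1.06 without both WT replicate 2 and cKO replicate 3.

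Npy was the other neuropeptide of the list and the gene with the fewest counts. Npy (Entrez gene 109648, chr6:49822710-49829507) gave 1.63, 1.98 and 1.69 CPM in WT and 3.43, 2.70 and 2.78 CPM in cKO. All 3 cKO libraries lay above all 3 WT libraries, but the 95% exact Poisson intervals of single libraries overlapped, for instance 1.36 to 2.80 CPM in WT replicate 2 and 1.95 to 3.63 CPM in cKO replicate 2. Such intervals cover counting error only. The mean was 1.77 ± 0.188 CPM in WT and 2.97 ± 0.404 CPM in cKO (SD, n = 3 each), and the log2 fold change was 0.74 ± 0.21 (SE). Npy rests on 26 to 32 counts in WT and 43 to 55 in cKO, and its spread between libraries, 0.16 on the log2 scale, was below the 0.24 that counting alone would give.

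**Figure D1:**
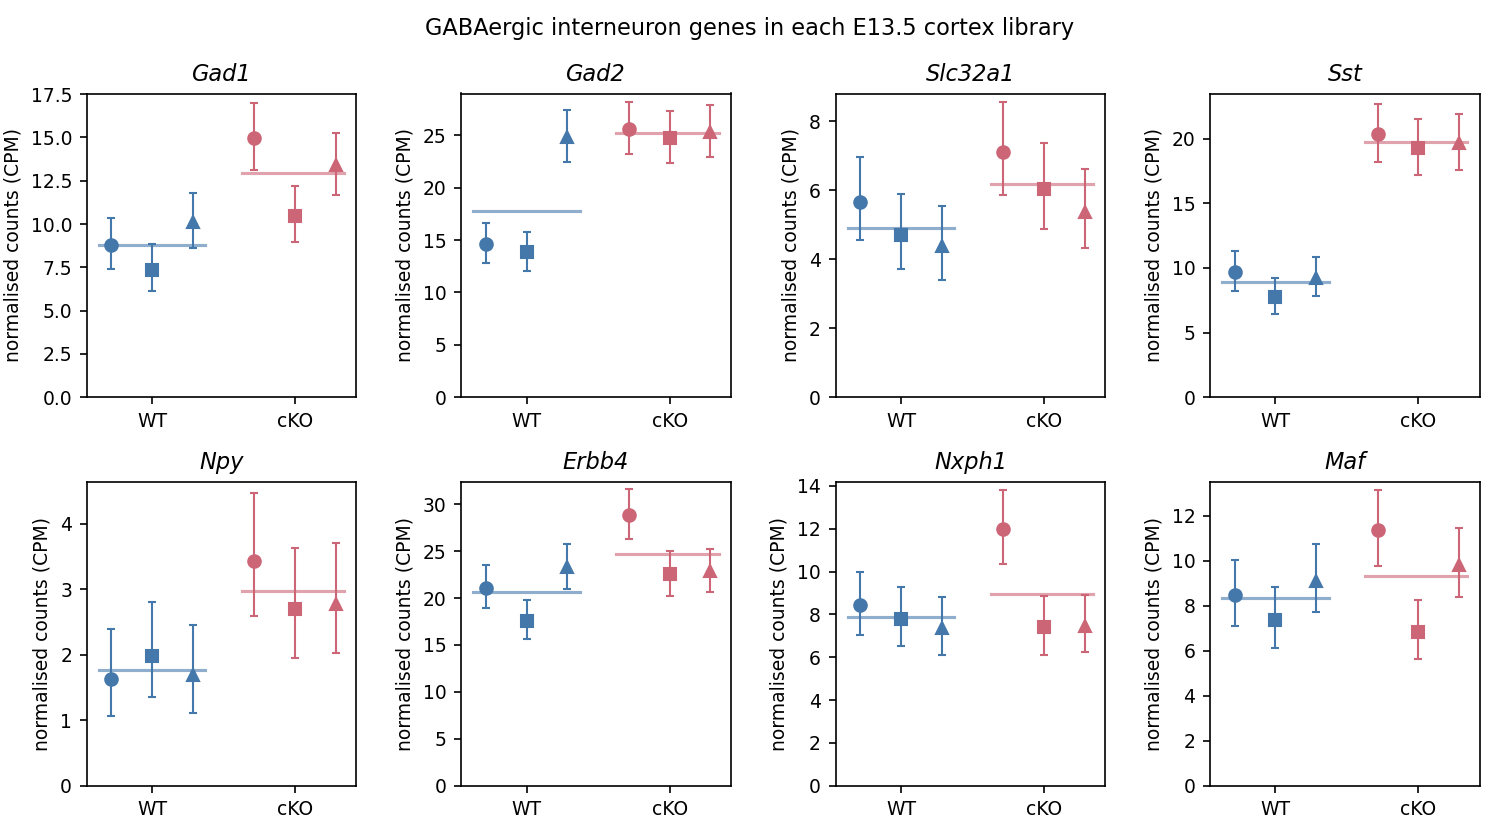
Normalised counts (CPM, vertical axis, from 0) of the 8 genes in each WT (blue) and cKO (red) library, with circles, squares and triangles for replicates 1, 2 and 3, 95% exact Poisson intervals as bars and genotype means as lines. Sst is at 7.75 to 9.67 CPM in WT and 19.3 to 20.3 CPM in cKO, whereas Gad2 of WT replicate 3 sits at the level of the cKO libraries.

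The GABA synthesis genes were also higher on average in cKO, with smaller differences. Gad1 (Entrez gene 14415, chr2:70561303-70602014) gave 8.79, 7.37 and 10.1 CPM in WT and 14.98, 10.5 and 13.4 CPM in cKO. The genotypes did not overlap for Gad1, although cKO replicate 2 was only slightly above WT replicate 3. Its mean was 8.76 ± 1.38 CPM in WT and 12.9 ± 2.28 CPM in cKO (SD, n = 3 each), and the log2 fold change was 0.56 ± 0.17 (SE). Gad2 (Entrez gene 14417, chr2:22621015-22693877) gave 14.6, 13.8 and 24.8 CPM in WT and 25.6, 24.8 and 25.3 CPM in cKO. WT replicate 3 was as high as the cKO libraries, so the genotypes overlapped. The Gad2 mean was 17.8 ± 6.13 CPM in WT and 25.2 ± 0.414 CPM in cKO (SD, n = 3 each), and the log2 fold change was 0.51 ± 0.21 (SE). Without WT replicate 3 the log2 fold change of Gad2 was 0.83.

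Slc32a1, which acts after both enzymes by filling vesicles with GABA, had overlapping genotypes. Slc32a1 (Entrez gene 22348, chr2:158607260-158615747) gave 5.65, 4.71 and 4.38 CPM in WT and 7.11, 6.02 and 5.37 CPM in cKO. The lowest cKO library lay below the highest WT library. Its mean was 4.91 ± 0.663 CPM in WT and 6.17 ± 0.881 CPM in cKO (SD, n = 3 each), and the log2 fold change was 0.33 ± 0.18 (SE).

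The remaining 3 genes had the smallest log2 fold changes of the 8, and 1 library stood out in each. Erbb4 (Entrez gene 13869, chr1:68031884-69108576) gave 21.1, 17.6 and 23.3 CPM in WT and 28.8, 22.5 and 22.9 CPM in cKO, and the log2 fold change was 0.26 ± 0.14 (SE). Nxph1 (Entrez gene 18231, chr6:8948614-9249619) gave 8.42, 7.81 and 7.38 CPM in WT and 11.98, 7.40 and 7.48 CPM in cKO, and the log2 fold change was 0.19 ± 0.20 (SE). Maf (Entrez gene 17132, chr8:115703253-115706894) gave 8.48, 7.37 and 9.13 CPM in WT and 11.4, 6.84 and 9.83 CPM in cKO, and the log2 fold change was 0.17 ± 0.19 (SE). In all 3 genes the highest library was cKO replicate 1, and the other cKO libraries lay within or near the range of WT. Without cKO replicate 1 the log2 fold change was 0.14 for Erbb4, -0.07 for Nxph1 and 0.01 for Maf, so that the direction of Nxph1 rests on that library.

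The mean of each of the 8 genes was higher in cKO, and their median log2 fold change was 0.42, or 0.33 over the 7 genes other than Sst. The median over all 13340 tested genes was 0.00, and 50.8% of them had a fold change above 0. For 3 of the 8 (Sst, Npy and Gad1) every cKO library lay above every WT library, a pattern that 4.21% of all tested genes showed, and 4.83% showed the reverse. With library totals alone in place of TMM factors, Gad2 also separated, which made 4. Since the genes were picked from this contrast, these counts describe the list and show nothing further. Without WT replicate 2 and cKO replicate 3, all 8 means were still higher in cKO, with log2 fold changes of 0.88 for Npy, 0.43 for Gad1, 0.39 for Slc32a1, 0.35 for Gad2, 0.30 for Nxph1, 0.21 for Erbb4 and 0.05 for Maf beside the 1.06 of Sst.

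**Figure D2:**
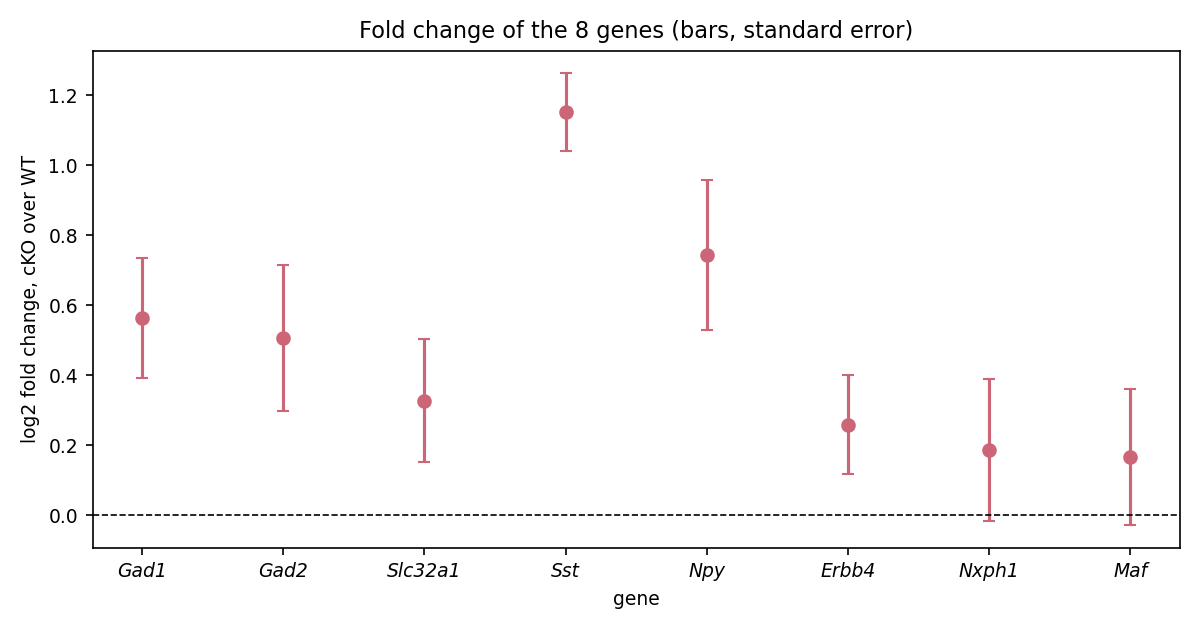
Log2 fold change of cKO over WT (vertical axis) for the 8 genes, with standard errors from the edgeR fit as bars and 0 as the dashed line. Sst is at 1.15 and the other genes lie between 0.17 for Maf and 0.74 for Npy.

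Compared per length, Sst was the most abundant of these transcripts. In WT it reached 57.7 ± 8.05 TPM, followed by Npy at 12.9 ± 0.936 TPM (SD, n = 3 each). Nxph1 (7.77 ± 0.362 TPM), Gad2 (6.97 ± 2.32 TPM) and Gad1 (6.81 ± 1.15 TPM) came next and did not differ from each other beyond their spread. Maf followed at 5.21 ± 0.667 TPM. Slc32a1 at 3.77 ± 0.701 TPM and Erbb4 at 3.62 ± 0.567 TPM were lowest and again within each other's spread. In cKO, Sst reached 127 ± 8.08 TPM and Npy 21.5 ± 3.62 TPM, and Gad1 and Gad2 reached 10.2 ± 2.11 and 9.96 ± 0.516 TPM. Sst thus made up 52.8% to 57.5% of the summed TPM of the 8 genes in WT libraries and 63.4% to 68.3% in cKO libraries.

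The GABA genes gave a yardstick within each library. Summed TPM of Gad1, Gad2 and Slc32a1 was 17.9, 14.3 and 20.5 in WT and 28.5, 22.0 and 24.5 in cKO. Divided by this sum, Sst was at 3.61, 3.42 and 2.91 in WT and 4.77, 5.45 and 5.14 in cKO. The difference of Sst between genotypes was therefore larger than that of the GABA genes in every pair of a WT and a cKO library. The same ratio for Npy was 0.697, 0.977 and 0.596 in WT and 0.901, 0.858 and 0.820 in cKO, and there the genotypes overlapped.

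**Figure D3:**
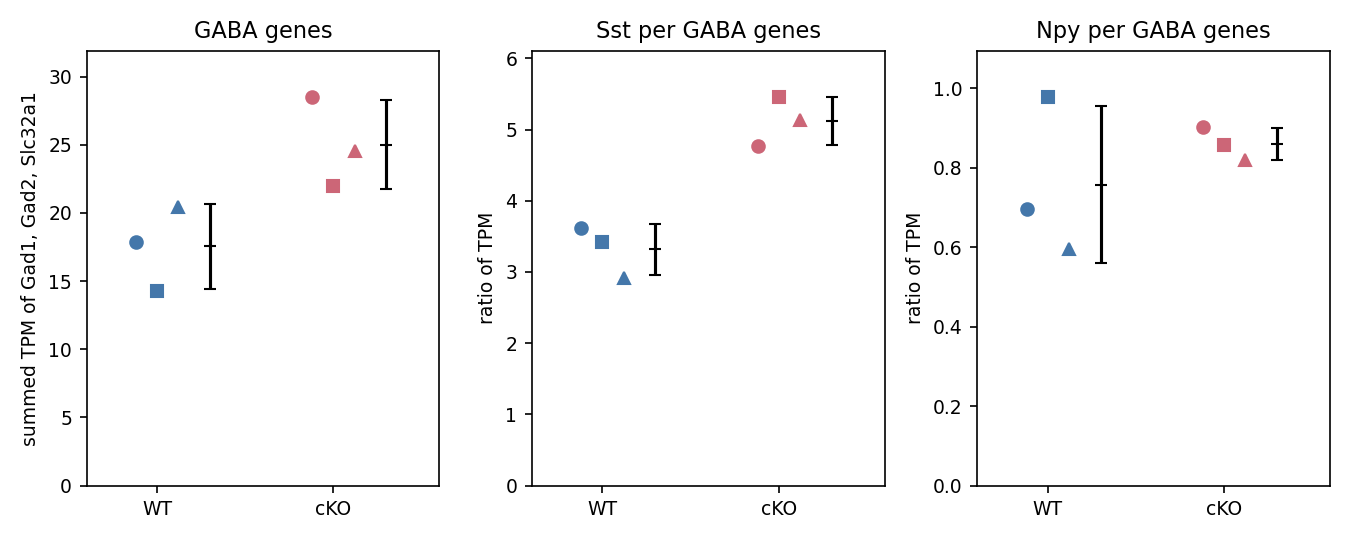
Summed TPM of Gad1, Gad2 and Slc32a1 (left), and the TPM of Sst (middle) and Npy (right) divided by that sum, in each WT (blue) and cKO (red) library, with circles, squares and triangles for replicates 1, 2 and 3 and mean ± SD in black. Sst per GABA transcript is at 2.91 to 3.61 in WT and 4.77 to 5.45 in cKO, and the Npy ratio overlaps.

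How far each gene followed Sst from library to library was examined next. On Sst the 6 libraries fall into 2 separate clusters, the genotypes, so a correlation over all of them mostly repeats the genotype difference and is given without a test. Over 6 libraries, Pearson's r of log2 CPM with Sst was 0.90 for Npy, 0.87 for Gad1, 0.76 for Gad2, 0.75 for Slc32a1, 0.71 for Erbb4, 0.37 for Maf and 0.34 for Nxph1. Spearman's rho was 0.94 for Gad1, 0.83 for Gad2, 0.77 for both Npy and Slc32a1, 0.66 for Erbb4, 0.60 for Maf and 0.37 for Nxph1. Among all tested genes other than Sst, 0.48% had a higher r than Npy, 0.885% than Gad1, 3.21% than Gad2 and 23.2% than Nxph1. Without WT replicate 2 and cKO replicate 1, the libraries farthest from the median of Sst, r was 0.996 for Npy, 0.75 for Gad1, 0.58 for Slc32a1, 0.56 for Gad2, 0.27 for Erbb4, -0.25 for Maf and -0.48 for Nxph1. The positive values of Maf and Nxph1 therefore rested on those libraries.

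The spread within genotypes, which the choice of genes did not use, gave a different order. Deviations of log2 CPM from the genotype mean were correlated with those of Sst, with an exact two-sided permutation of libraries within genotype that can give no p below 0.0278. Pearson's r was 0.75 for Erbb4 (exact permutation p = 0.0833, adjusted over 7 genes 0.292), 0.67 for Gad1 (p = 0.167, adjusted 0.389) and 0.52 for Maf (p = 0.0833, adjusted 0.292). It was 0.41 for Gad2 (exact permutation p = 0.694, adjusted 0.694), 0.40 for Slc32a1 (p = 0.611, adjusted 0.694), 0.27 for Nxph1 (p = 0.250, adjusted 0.438) and -0.42 for Npy (p = 0.472, adjusted 0.661). Spearman's rho was 0.77 for Erbb4 (exact permutation p = 0.111), 0.54 for Gad1 and Maf (p = 0.250 each), 0.43 for Gad2 (p = 0.556) and Nxph1 (p = 0.250), 0.26 for Slc32a1 (p = 0.611) and -0.09 for Npy (p = 0.917). After adjustment over the 7 genes the lowest of these rank values was 0.438. WT replicates 1 and 2 lie farthest from the median Sst deviation. With these 2 points dropped, r was 0.93 for Erbb4, 0.92 for Gad1, 0.80 for Maf, 0.74 for Gad2, 0.57 for Nxph1, 0.54 for Npy and 0.15 for Slc32a1. Deviations were still taken from the mean of all WT libraries, so the dropped libraries still shaped the deviation of the remaining one. Leaving out 1 library before the genotype means were taken turned signs: r was -0.58 for Gad2 and 0.67 for Npy without WT replicate 2 alone, and -0.085 for Slc32a1 without WT replicate 1 alone. With the replicate number as a block, r was -0.30 for Gad1, -0.67 for Nxph1 and -0.84 for Maf. None of the 7 genes had a permutation p under 0.05, even before adjustment. With no p below 0.0278 possible, a single gene could not have passed after adjustment over 7 genes. The adjusted values therefore cannot decide whether a gene followed Sst. The deviations of Sst itself ran from -0.19 (WT replicate 2) to 0.13 (WT replicate 1) on the log2 scale, little more than its counting error.

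Outside the list, the genes whose log2 CPM most resembled that of Sst over the 6 libraries, among genes of at least 5 CPM on average, were Nfkb1 (r = 0.98), Med27 (0.98), Pard6g (0.97), Tmem223 (0.97) and Camk2a (0.97). Of these 5, Camk2a, the alpha subunit of a calcium/calmodulin-dependent kinase, had the largest log2 fold change (0.50), with 18.9 ± 1.28 CPM in WT and 26.7 ± 0.505 CPM in cKO (SD, n = 3 each). For deviations within genotype the closest were Med16 (r = 0.999), C77080 (0.995), Trpc4ap (0.995), Ogdh (0.99) and Acox3 (0.99). These genes were ranked after their values were seen, and no test was made.

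Genes that act with the 8 were then examined from 8 lists of 79 genes, of which 60 were tested. When edgeR's quasi-likelihood fit was adjusted after Benjamini and Hochberg over all 13340 genes, 0 of the 60 passed an adjusted p-value of 0.05 in either direction, and the count was also 0 with DESeq2 and with limma-voom. Over all genes edgeR called 0.0% higher and 0.0% lower, while DESeq2 called 2 genes higher and 2 lower and limma-voom called 0. The edgeR fit thus did not call Ybx1 itself, at a log2 fold change of -3.00 ± 0.33 (SE). The count of 0 therefore does not set the 60 genes apart. Before adjustment, 6 of the 60 were higher and 1 was lower with p under 0.05 (7 and 1 with DESeq2, 6 and 1 with limma-voom), beside 1.75% of all tested genes higher (234) and 1.81% lower (242). The median log2 fold change of the 60 was 0.00, and 30 of them had a fold change above 0. Without cKO replicate 3 the number of higher genes was 3, and without WT replicate 1 or WT replicate 2 it was 2 in each case. Below, a gene is called higher or lower where its unadjusted p-value in this edgeR fit was under 0.05. None of these genes passed after adjustment. Without both WT replicate 2 and cKO replicate 3, 2 of the 60 were higher and 1 was lower, and log2 fold changes were 0.69 for Scg2, -0.997 for Cck, 0.47 for Calb1, 0.43 for Egfr, 0.54 for Dlx1 and 0.61 for Dlx5, of which those of Scg2 and Cck passed.

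Of 9 tested genes of GABA metabolism and transport, 1 was higher at an unadjusted p-value under 0.05. The abundant glutamine transporters Slc38a2 and Slc38a1 had log2 fold changes of -0.03 and -0.06.

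Among other interneuron peptides and calcium-binding proteins, 5 of 10 were tested, 1 of which was higher and 1 lower. Cck, the gene of cholecystokinin, gave 1.88, 1.61 and 2.0 CPM in WT and 1.06, 0.878 and 0.603 CPM in cKO, and so differed in the direction opposite to Sst and Npy. Its log2 fold change was -1.11 ± 0.29 (SE), on 26 to 32 counts in WT and 10 to 17 in cKO. Calb1, which encodes calbindin, differed by 1.25 ± 0.46 (log2, SE), which rested on cKO replicate 3 (4.71 CPM); without that library the difference was 0.56 and no longer passed. Nos1 and Calb2 had log2 fold changes of -0.20 and 0.12. Markers of mature classes were near the limit of detection, with at most 1 count of Pvalb and at most 2 counts of Cort, a paralog of Sst, in any library.

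Peptide processing and release offered 9 tested genes, 1 of them higher. Scg2, the gene of the granule protein secretogranin II, gave 3.89, 4.34 and 3.31 CPM in WT and 5.93, 5.71 and 6.15 CPM in cKO, without overlap. Its log2 fold change was 0.62 ± 0.16 (SE). Cpe and Pam, enzymes that trim and amidate peptides, had log2 fold changes of 0.09 and 0.02. Of the receptors of somatostatin and NPY, 3 of 10 were tested and 0 differed at an unadjusted p-value under 0.05. Sstr2, the most abundant of them, was at 119 ± 26.6 CPM in WT and 119 ± 21.5 CPM in cKO (SD, n = 3 each), and Sstr3 had a log2 fold change of -0.05. Transcripts of the NPY receptors Npy1r, Npy2r and Npy5r stayed below the filter.

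Partners of the other 3 genes showed few differences. Of 6 tested neuregulins and ErbB receptors, Egfr was higher at an unadjusted p-value under 0.05, on account of 8.57 CPM in cKO replicate 3 against at most 0.941 CPM in the other libraries. Without cKO replicate 3 its log2 fold change was 0.58 in place of 2.79 and no longer passed. The ligand Nrg1 and the receptor Erbb2 had log2 fold changes of -0.14 and 0.16. Of 6 neurexins and neurexophilins and 5 Maf family factors, 0 differed at that threshold, and log2 fold changes were -0.04 for Nrxn2 and -0.01 for Mafg.

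Of 17 tested factors of interneuron specification and migration, 2 were higher at an unadjusted p-value under 0.05, beside 1.75% of all tested genes. In 10 of the 17 the fold change was above 0, beside 50.8% of all tested genes. Dlx1, a homeodomain factor of GABAergic precursors, gave 17.1, 16.6 and 36.3 CPM in WT and 31.0, 46.7 and 41.0 CPM in cKO, and the log2 fold change was 0.76 ± 0.30 (SE). Dlx5 gave 2.58, 2.79 and 5.38 CPM in WT and 5.80, 6.34 and 6.39 CPM in cKO, and the log2 fold change was 0.79 ± 0.28 (SE). Both were high in WT replicate 3, where Gad2 was also at its cKO level and Sst was not. Without WT replicate 3 the log2 fold changes were 1.23 for Dlx1 and 1.20 for Dlx5. Without WT replicate 1, WT replicate 2 or cKO replicate 2 they were 0.57 to 0.62 for Dlx1 and 0.60 to 0.77 for Dlx5, and neither gene passed, nor did Dlx1 without cKO replicate 3 (0.73). Sox6 and Robo1, the most abundant genes of this list, had log2 fold changes of -0.08 and -0.19.

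Lhx6, chosen after its values were seen, is the factor that marks the medial ganglionic eminence lineage of Sst interneurons. It gave 18.2, 12.9 and 16.3 CPM in WT and 29.5, 13.9 and 17.8 CPM in cKO, and the log2 fold change was 0.37 ± 0.27 (SE), which did not pass. Like Erbb4, Nxph1 and Maf it was highest in cKO replicate 1, whereas Sst was nearly the same in the 3 cKO libraries.

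**Figure D4:**
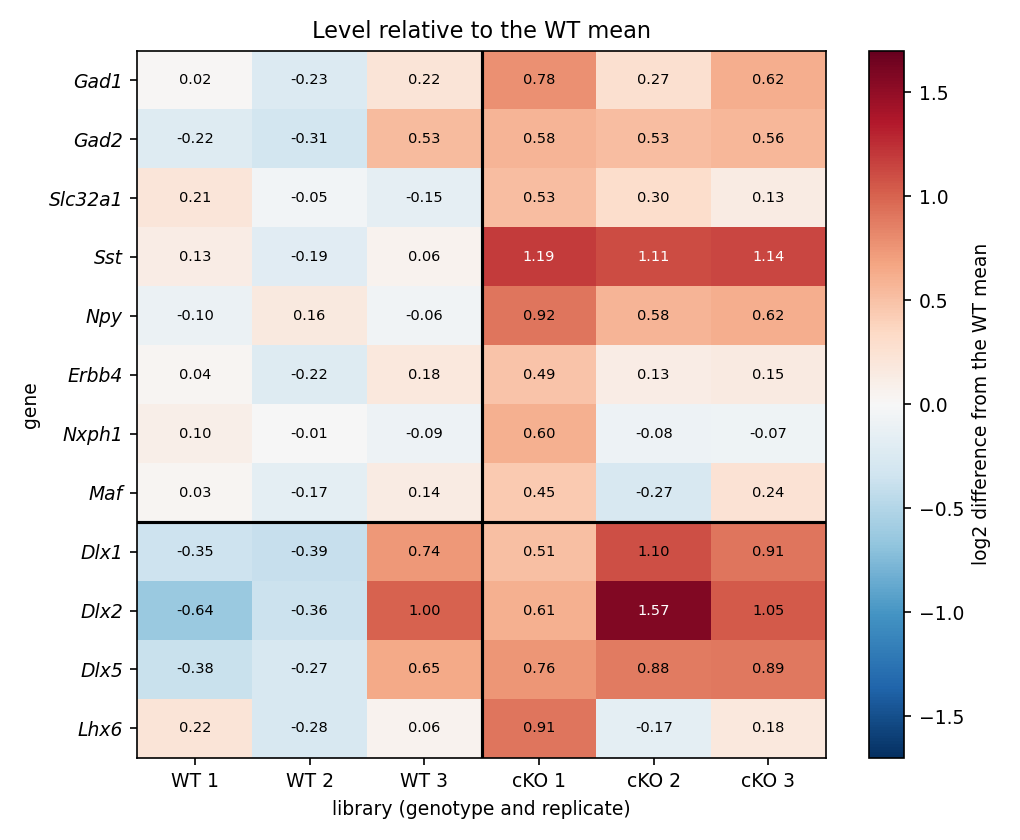
Log2 difference of each library from the WT mean (colour and printed value) for the 8 genes (above the line) and for Dlx1, Dlx2, Dlx5 and Lhx6 (below it). Sst is 1.11 to 1.19 above the WT mean in all cKO libraries, Gad2, Dlx1, Dlx2 and Dlx5 are also high in WT replicate 3, and Nxph1 and Lhx6 are highest in cKO replicate 1.

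Markers of other cell types that a cortical dissection could hold were summed per library. Ventral forebrain progenitor markers gave 53.1, 62.0 and 78.9 CPM in WT and 67.2, 105.7 and 77.7 CPM in cKO. These ranges overlapped, and 0 of 4 tested markers passed an unadjusted p-value of 0.05. All 4 had a fold change above 0, beside 50.8% of all tested genes. Dlx2, among the most abundant of them, had a log2 fold change of 0.95 ± 0.43 (SE) and gave 6.09, 7.37 and 19.2 CPM in WT and 14.6, 28.5 and 19.8 CPM in cKO. Nkx2-1, the defining factor of the medial ganglionic eminence, had 1 to 2 counts in WT and 4 to 7 in cKO, and Gsx2 had 0, 7 and 34 counts in WT and 17, 43 and 42 in cKO (both chosen after their values were seen). The part of ventral tissue in the levels of Sst and the GABA genes was not tested.

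Striatal projection neuron markers summed to 90.2 to 96.5 CPM in WT and 86.5 to 108 CPM in cKO, and 0 of 8 tested passed an unadjusted p-value of 0.05. Most of the sum came from Foxp1 (log2 fold change -0.15), followed by Ebf1 (0.37). Of the 8 tested, 6 had a fold change above 0, beside 50.8% of all tested genes, and their median log2 fold change was 0.38. The part of striatal tissue in the level of Sst was not tested. The hypothalamus and thalamus, which also hold Sst and Npy neurons, gave 66.9 to 87.4 CPM in WT and 65.0 to 65.5 CPM in cKO, nearly all of it from Lhx9 and Tcf7l2. Lhx9 was lower at an unadjusted p-value under 0.05 (log2 fold change -0.33). Tcf7l2 gave 11.6, 10.8 and 11.6 CPM in WT and 12.5, 14.9 and 11.8 CPM in cKO, so that every cKO library lay above every WT library (log2 fold change 0.21). The other 8 listed markers did not pass the filter. Of these, Sim1 had 53 counts and Foxb1 had 11 counts in cKO replicate 3, against at most 6 and 0 in the other libraries, Pomc had 3 to 16 counts, and Otp, Nkx2-4, Rax, Hmx3 and Gbx2 had at most 1 count in any library. The part of hypothalamic or thalamic tissue in the level of Sst was not tested either. Cajal-Retzius cell markers gave 430 to 521 CPM in WT and 325 to 430 CPM in cKO. Of the 6 tested, Reln, the gene of reelin, was lower (log2 fold change -0.37) and Ndnf was higher (0.65) at an unadjusted p-value under 0.05. Erythroid markers gave 641 to 880 CPM in WT and 690 to 1121 CPM in cKO, endothelial markers 68.7 to 94.0 and 76.7 to 97.6 CPM, and microglial markers 19.3 to 31.5 and 20.8 to 27.9 CPM, and in each of these lists 0 genes passed an unadjusted p-value of 0.05. In the meninges and skin list 3 of 5 tested were higher at that threshold (Col1a1, Col1a2 and Col3a1), with 128, 144 and 181 CPM in cKO replicate 3 and at most 6.02 CPM in any other library. The level of Sst in that library was like that in the other cKO libraries.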

How the data were processed

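Total RNA was extracted from E13.5 cortex with Trizol, and mRNA libraries were sequenced on the DNBSEQ platform (3 WT, 3 cKO). The submitters' processing notes name HISAT2 2.2.1, Bowtie2 2.4.5, RSEM 1.3.1 and GRCm38 (mm10), without their roles. The gene annotation and any strand setting are not given in the sources used here, so reads of a gene and an antisense partner (Gad1os for Gad1) could not be told apart. The authors deposited estimated counts without scaling for depth, of which 10.9% were not whole. The authors deposited TPM values scaled to a common sum, used here for levels between genes and 1 alternative. FPKM values deposited by the authors and their group averages were not used. Columns named Ctrl were matched to the samples titled WT by replicate number.

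Estimated counts were rounded. Genes were kept by filterByExpr (minimum count 10, minimum total count 15), scaled with TMM factors and fitted with edgeR 4.0.16 (quasi-likelihood, genotype only, R 4.3.3), with Benjamini-Hochberg adjustment. The standard error is the log2 fold change divided by the square root of F. Log2 CPM used a prior count of 2. Library totals were 15907486 to 16282921, which gives the counting intervals shown. Tests were run on simulated data first. The 8 genes and all lists were chosen with earlier results of these data known. Beyond the 8 genes, named genes are those of the pathway lists with an unadjusted p-value under 0.05 (at most 4 per list), the 2 most abundant of each list, and the 5 closest to Sst by each measure. Alternatives were library totals, RLE or upper-quartile factors, DESeq2 1.42.0, no filter, a filter of 10 or more counts per library, limma-voom (limma 3.58.1), limma on log2(TPM + 1), a prior count of 0.5, the replicate block and leaving out libraries. Some genes of the lists enter the counts and sums and are not reported singly here.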

Additional observations from a re-analysis of the deposited data

How the results depend on the processing

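Over 16 alternatives, the number of the 8 genes with a higher mean in cKO was 7 to 8, their median log2 fold change was 0.33 to 0.52, and Sst stayed between 1.06 and 1.22. Nxph1 ran from -0.071 to 0.30 when 1 library was left out. Over all genes, the number past an adjusted p-value of 0.05 was 2 higher and 2 lower with DESeq2, 1 and 1 without WT replicate 2 and cKO replicate 3 together, and 0 to 1 in each direction when 1 library was left out. At an unadjusted p-value under 0.05, 390 were higher with no filter (more genes tested), 148 with DESeq2 and 105 without those 2 libraries, where 141 were lower. Leaving out 1 library gave 121 to 571 higher and 118 to 482 lower genes. Of the 60 pathway genes, 2 to 8 were then higher and 1 to 5 lower, and 2 were higher without both libraries. The cause was not tested. Adding the replicate block gave 1 higher and 1 lower gene after adjustment, 476 higher and 614 lower ones before it, and 10 higher and 5 lower pathway genes. Libraries of replicate numbers 1 and 2 deviated partly together (correlations of 0.41 and 0.31), and those of number 3 did not (-0.02). The main values are without the block and so leave this shared deviation out of account. Whether libraries of the same number shared 1 of the 3 sequencing batches is not given.

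For tracking of Sst within genotypes, 0 of 7 genes passed in any alternative with a test. With all 6 libraries a single gene could not have passed after adjustment. With 1 library left out the arrangements are too few to reach 0.05 even before it. Leaving out 1 library moved r from -0.58 to 0.97 for Gad2, from -0.085 to 0.83 for Slc32a1 and from -0.92 to 0.67 for Npy, which was at 0.039 with log2(TPM + 1). With the replicate block r was -0.30 for Gad1, -0.67 for Nxph1 and -0.84 for Maf. The summed striatal markers differed by 0.04 (log2) with CPM and 0.31 with TPM. Depth limits Npy most.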
